A study of Homo sapiens with 4 samples.

Results

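The 10 genes described here encode amino acid carriers outside system L, and were followed on the arrays of 2 breast cancer cell lines. They are SLC7A11, SLC1A5, SLC1A4, SLC1A1, SLC7A1, SLC38A1, SLC38A2, SLC6A9, SLC36A1 and SLC36A4, a set named for carriers of cystine, glutamine, cationic amino acids and glycine and for lysosomal carriers. Every probe set whose annotation names one of these 10 genes alone was taken, which gave 28 of the 41097 probe sets that name 1 gene, and all 10 members among 19775 genes. The lines were MDA-MB-231, which is triple negative, and T-47D, which carries the estrogen receptor. Each was exposed for 24 h to 100 μM JPH203, a competitive inhibitor of the leucine transporter LAT1, or to the vehicle Captisol, a cyclodextrin derivative given in the labels at the same concentration. Each of the 4 conditions was measured on 1 Affymetrix U133 Plus 2.0 array of total RNA, and both lines were grown in RPMI1640 medium. No condition was repeated, so every difference given stands without replicate error and untested.

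Cells take up amino acids through carriers of different families that differ in substrate and driving ion. SLC7A11, known as xCT, exports glutamate in exchange for cystine, the source of cysteine for glutathione, and works only when paired with the heavy chain SLC3A2, which LAT1 also needs. Sodium-coupled carriers of the SLC1 and SLC38 families bring in glutamine, alanine and serine, some of which leave again in exchange for other amino acids. When amino acids run short, the kinase GCN2 and the transcription factor ATF4 raise the transcription of several of these carriers, and SLC38A2 is a classic example of a carrier induced by starvation.

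A promoter sequence was available in the RefSeq tables (GRCh38.p14) for 9 of the 10 members, all but SLC7A11, as 15 windows reaching from 250 bases before to 50 bases after an annotated start. The sites that ATF4 is known to bind in starvation-induced genes, the amino acid response elements, were searched as TGATGNAAN on both strands. A match lay in 4 of the 15 windows, each of a different gene, against 3.61% of all 35116 windows. Because the members were chosen with earlier results of these data known, this count describes them and was not tested. The 4 matches are shown because ATF4 itself was called higher in T-47D cells, although none of these 4 genes was called there. The capitals mark the match in 30 bases written along the strand of the gene.
SLC1A4: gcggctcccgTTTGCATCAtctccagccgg
SLC1A5: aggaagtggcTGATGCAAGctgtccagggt
SLC7A1: ggcgcactgcTGATGAAACctggcgccgga
SLC38A1: cagacccgaaTGATGAAAAgggatcagcta
The SLC1A4 match is in the window chr2:64989149-64989448 (plus strand) and reads as the element on the opposite strand, from position -8 to 1 counted from the start as position 1, with no position 0. That of SLC1A5 is in chr19:46784765-46785064 (minus strand), from -97 to -89. The SLC7A1 match, in chr13:29595639-29595938 (minus strand), lies after the start, from 8 to 16, and that of SLC38A1, in chr12:46266467-46266766 (minus strand), spans it from -4 to 5. The windows of SLC38A2, SLC1A1, SLC6A9, SLC36A1 and SLC36A4 held no such letters, which says nothing about sites outside them.

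The antioxidant response element bound by NRF2, searched as TGACNNNGC, was found in a window of SLC7A1 and a window of SLC1A5, against 13.3% of all windows. The E-box CACGTG, read by MYC and by the lysosomal regulators TFEB and TFE3, was present in 7.26% of all windows. Among the members it was found in a window of SLC1A5 and at a pair of places in one window of SLC36A1, the lysosomal carrier, in chr5:151447353-151447652 (plus strand), from -43 to -38 and from -8 to -3. The stretches around them are shown because 1 window holds both, and the capitals mark the E-box.
SLC36A1 upper site: cgctcaagggagCACGTGacctcggcctct
SLC36A1 lower site: gggcggtgggatCACGTGatgaggtccgga
The 100 bases before a start of SLC38A1 and of SLC38A2 are also shown, since both genes had lower signals with JPH203 on the T-47D arrays, with no part in capitals, from chr12:46267938-46268237 and chr12:46372724-46373023 (both minus strand).
SLC38A1: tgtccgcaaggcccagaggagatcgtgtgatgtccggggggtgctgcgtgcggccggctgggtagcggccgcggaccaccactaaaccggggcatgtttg
SLC38A2: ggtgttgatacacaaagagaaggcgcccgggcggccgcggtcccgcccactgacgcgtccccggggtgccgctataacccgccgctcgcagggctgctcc
The window of SLC38A2 had a GC content of 72% and this one of SLC38A1 of 62.3%, against a median of 58.7% over all windows. The other window of SLC38A1, which holds its amino acid response element match, had 43.3%. The genes are neighbours on chromosome 12, with 1 annotated gene between them and 0 that code for protein.

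Signals are linear intensities, scaled on each array by itself, and a ratio was read as a size only where both of the arrays compared reached 100, the minimum signal used here. Of the 28 member probe sets, 6 reached that signal on all 4 arrays, and these measured SLC7A1, SLC38A1 and SLC38A2. Another 8 reached it on 1 to 3 arrays, and 14 on none. Both probe sets of SLC1A1, the glutamate and aspartate carrier EAAT3, were below it on every array, with signals of 1.4 to 35.2, as was the single probe set of SLC6A9, the glycine carrier GlyT1, with 2.6 to 21.4. For these 2 genes no difference could be read at this signal. The 14 luminal markers were all at the minimum signal on both T-47D arrays and 6 of them on each MDA-MB-231 array, with summed signals of 66327 and 70867 against 8714 and 8236. Of 12 mesenchymal markers, 9 reached it on each MDA-MB-231 array and 1 on each T-47D array, with sums of 25835 and 25001 against 349 and 367, so the arrays matched their labelled lines. Of 8 markers of blood, endothelial and fibroblast cells, 0 reached it in MDA-MB-231 cells and COL1A1 alone in T-47D cells, at 656 and 468. The 3-prime to 5-prime ratio of ACTB, which depends on how intact the RNA was, measured 1.39 in the T-47D control and 1.72 with JPH203, against 1.45 and 1.44 in MDA-MB-231 cells. That of GAPDH went the other way in T-47D cells, from 0.940 to 0.867, and was 0.987 and 1.01 in MDA-MB-231 cells. The poly-A spike-in signal with JPH203 was 1.57 times the control in T-47D and 0.916 times in MDA-MB-231 cells. For the hybridisation spike-ins these values were 1.30 and 0.960. Their signal in the MDA-MB-231 control was 0.726 times that in the T-47D control. The part of these values in the ratios below was not tested.

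**Figure D1:**
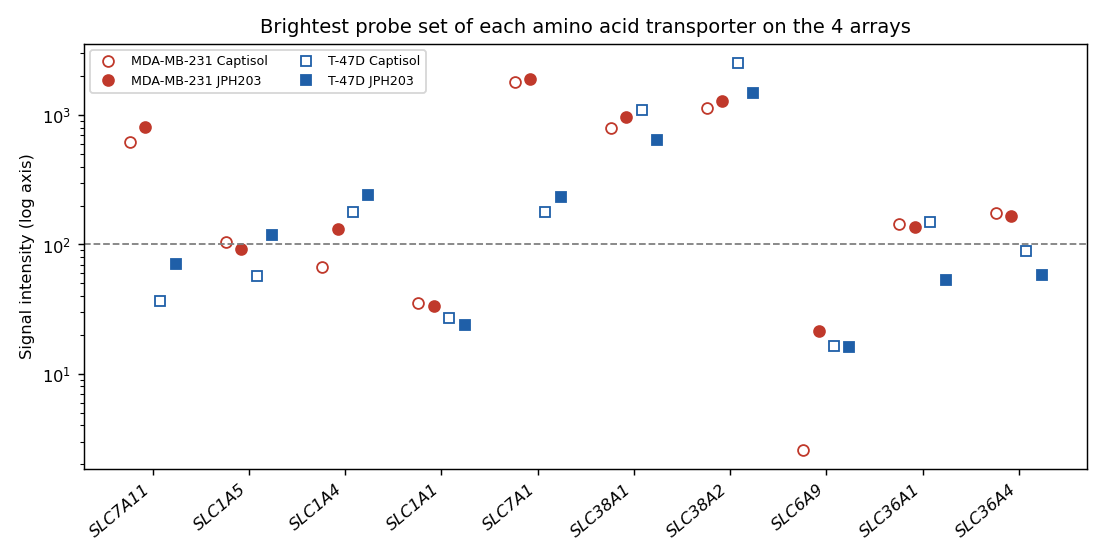
Signal intensity (y axis, logarithmic) of the brightest probe set of each of the 10 carriers (x axis) on the 4 arrays, with open symbols for Captisol and filled symbols for JPH203, red circles for MDA-MB-231 and blue squares for T-47D, and a point for every array. A dashed line marks the minimum signal of 100; SLC1A1 and SLC6A9 lie below it on all arrays, SLC7A11 lies above it in MDA-MB-231 cells only, and the SLC38A1 and SLC38A2 points with JPH203 lie below their controls in T-47D cells.

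With JPH203 no member probe set that could be read differed 2-fold from its control in either line. In MDA-MB-231 cells 11 member probe sets of 6 genes could be read, and 0 were called higher, where 0.0981% of all 10194 probe sets were, and 0 lower, where 0.00981% were. In T-47D cells 8 member probe sets of 4 genes could be read, and 0 were called higher, where 2.17% of 9143 were, and 0 lower, where 2.43% were. With background shares this small, the absence of a call among so few probe sets is not a result about the carriers. Of the 11 ratios read in MDA-MB-231 cells 9 were above 1, as were 3 of the 8 read for T-47D. Several of these probe sets measure the same gene. Counted by gene, 4 were higher and 2 lower with JPH203 for MDA-MB-231, while the T-47D genes split evenly, 2 higher and 2 lower. No share of all probe sets above 1 is set beside these counts. Over the genes with the minimum signal on at least 1 of the 2 arrays, the median log2 ratio was 0.13 for 8 members in MDA-MB-231 cells, beside -0.0048 for all genes, and -0.19 for 6 members in T-47D cells, beside -0.05 for all genes. Over the 6 and 4 genes read on both arrays it was also 0.13 and -0.19. Each T-47D median is the midpoint between the log2 ratios of SLC7A1, 0.37, and SLC38A2, -0.75, and no member that entered it lay near it.

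SLC7A11 gave one of the larger differences among the members in MDA-MB-231 cells. Its brightest probe set read 615 without and 804.5 with JPH203, which is a ratio of 1.31, and the next had 385 and 508, a ratio of 1.32. Of all probe sets read in this line, 3.04% and 2.78% had ratios as high, and both probe sets were above the controls by a like factor. In T-47D cells the first had 36.9 and 71.3 and the second 17.1 and 25.3, below the minimum on both arrays, so that no ratio is read there. A further probe set stayed below the minimum throughout, at 41.0 and 50.3 for MDA-MB-231 and, for T-47D, 21.8 and 21.4. SLC3A2, the heavy chain that xCT shares with LAT1, had 509 and 851 in MDA-MB-231 cells, a ratio of 1.67. In T-47D cells it had 619 and 821, with a ratio of 1.33, and neither was called.

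Of the glutamine carriers, SLC38A1 and SLC38A2 were the members whose ratios were lowest in T-47D cells among those that could be read. SLC38A1, the sodium-coupled carrier SNAT1, had a signal of 1090.0 in the T-47D control and 646 with JPH203 on its brightest probe set. On the next it had 791 and 464.5, and the ratios were 0.593 and 0.587. In MDA-MB-231 cells the first had 791 and 969, a ratio of 1.23, and the second 567 and 620, a ratio of 1.09. Its other probe sets were below the minimum on every array, with 1.8 to 50.1. The T-47D control thus had the highest SLC38A1 signal of the 4 arrays and the T-47D JPH203 array the lowest, on both probe sets.

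SLC38A2, the related carrier SNAT2, gave the same picture on 3 probe sets, all of them of the _x_at or _s_at kind, whose probes can also match other transcripts. The brightest had 2511 in the T-47D control and 1489 with JPH203, against 1133 and 1289 in MDA-MB-231 cells. The others had 1325 and 739, and 1213 and 699, on the T-47D arrays, against 685 and 777, and 581 and 639, in MDA-MB-231 cells. In T-47D cells the ratios lay between 0.558 and 0.593, and in MDA-MB-231 cells between 1.10 and 1.14. Here the control array of T-47D cells again had the highest signal, but both T-47D arrays lay above both MDA-MB-231 arrays except for the 739 of the second probe set, which was below 777.

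At a 1.5-fold threshold all 5 of these probe sets were called lower in T-47D cells, of 8 read, where 13.8% of all probe sets were. As they measure 2 genes, the same count by gene was 2 of 4, where 13.6% of all 6416 genes were. At 2-fold none was called, and in T-47D cells 5.13% to 7.39% of all probe sets read had a ratio as low as theirs, so that these ratios lay inside the central 95% of all ratios in this line, from 0.502 to 1.96. In MDA-MB-231 cells the central 95% ran from 0.779 to 1.33, and 6.84% to 22.4% of all probe sets had ratios as high as those of the 5. The scaling changed the size: with the signals scaled to the poly-A spike-ins, all 5 were called lower, where 26.8% of all probe sets then were, with ratios of 0.373 to 0.377 for SLC38A1 and 0.355 to 0.377 for SLC38A2, but the median gene then moved by -0.65 on the log2 scale as well. With median centring, quantile normalization, loess or a pseudocount of 16, the ratios lay between 0.532 and 0.622. When the log2 values of all SLC38A1 probe sets were averaged, the dim ones included, its log2 ratio turned to 0.37 in T-47D and -0.40 in MDA-MB-231 cells. The dimmest read 1.9 and 13.6 on the T-47D arrays and 8.8 and 1.8 on the MDA-MB-231 arrays, all far below the minimum.

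**Figure D2:**
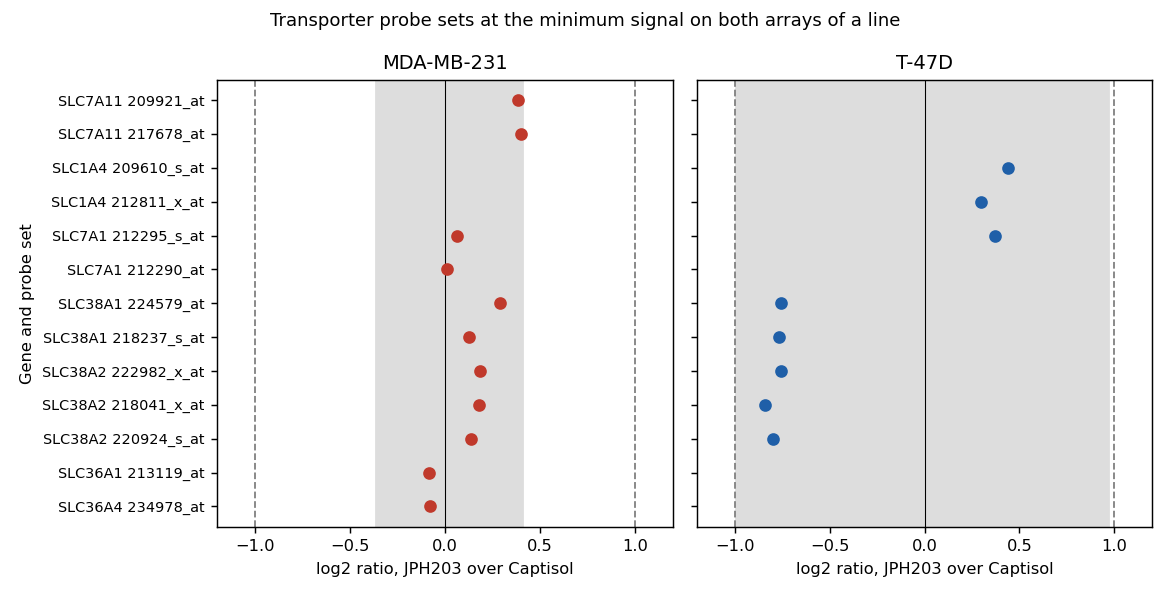
Log2 ratio of JPH203 over Captisol (x axis) for the member probe sets (y axis) that reached 100 on each array of the line, for MDA-MB-231 in the left panel (red) and T-47D in the right panel (blue), each point being 1 pair of arrays and probe sets without a point in a panel being below that signal there. The grey band spans the central 95% of all probe sets read in that line and the dashed lines mark 2-fold; the 5 probe sets of SLC38A1 and SLC38A2 lie to the left of 0 in T-47D cells and to the right of it in MDA-MB-231 cells.

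**Figure D3:**
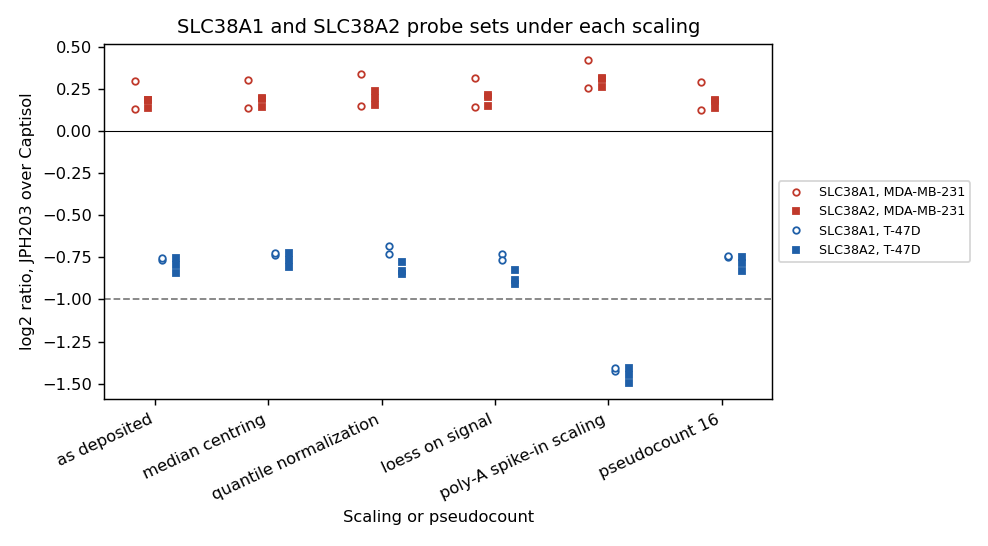
Log2 ratio of JPH203 over Captisol (y axis) of the SLC38A1 (open circles) and SLC38A2 (filled squares) probe sets that reached 100 on every array, in MDA-MB-231 (red) and T-47D cells (blue), under each scaling or pseudocount (x axis). Each point is 1 probe set and the dashed line marks a 2-fold lower signal; the T-47D points pass it with poly-A spike-in scaling alone.

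SLC1A4 and SLC1A5 are exchangers of neutral amino acids, ASCT1 for alanine, serine and cysteine and ASCT2 for glutamine as well. The brightest SLC1A4 probe set had 179 in the T-47D control and 243 with JPH203, a ratio of 1.36, and the next had 144 and 176, a ratio of 1.23. In MDA-MB-231 cells the same probe sets had 67.2 and 131, and 80.5 and 110, so that the controls were below the minimum. With that minimum put in place of the control values, the JPH203 signals were at least 1.31-fold and 1.10-fold higher. On these 2 probe sets the JPH203 array was above its control in both lines, and neither ratio was outside the central 95% in T-47D cells, where 17.7% and 25.8% of all probe sets read had ratios as high. With spike-in scaling the direction of the brightest turned in T-47D cells, to a log2 ratio of -0.21. The other 3 probe sets were below the minimum on every array, with 5.3 to 98.0. The single SLC1A5 probe set had 57.5 and 118 in T-47D cells and 105 and 92.7 in MDA-MB-231 cells, each pair with 1 array below the minimum. The bound against that minimum was at least 1.18-fold higher with JPH203 in T-47D and at least 1.05-fold lower in MDA-MB-231 cells.

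SLC7A1, the carrier CAT1 for arginine and lysine, differed between the lines far more than with JPH203. Its brightest probe set read 1814 on the MDA-MB-231 control array and 1899 with the inhibitor, a ratio of 1.05. The T-47D arrays read 178 and 231, a ratio of 1.30 whose log2 value turned from 0.37 to -0.28 with spike-in scaling and to -0.43 with the mean of probe sets. Another had 198 and 199.9 in MDA-MB-231 cells, a ratio of 1.01, and 4.3 and 30.0 in T-47D cells, below the minimum. The remaining 3 were below it on every array, with 0.9 to 44.1. In MDA-MB-231 cells, then, both probe sets that could be read had nearly the same signal on the 2 arrays.

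SLC36A1, the proton-coupled carrier PAT1, is found on lysosomes, and SLC36A4 is the related carrier PAT4. Both have been linked to the sensing of amino acids by mTORC1. The SLC36A1 probe set that could be read had 143 and 135 in MDA-MB-231 cells, a ratio of 0.945, and 149 in the T-47D control against 53.6 with JPH203. The last value was below the minimum of 100, so the T-47D control is at least 1.49-fold higher when that minimum is put in its place. At a minimum signal of 50 it was called lower, where 3.27% of all probe sets were. The other SLC36A1 probe set had 1.1 on both MDA-MB-231 arrays and 8.9 and 34.1 in T-47D cells, below the minimum. SLC36A4 had 175 and 166 in MDA-MB-231 cells, a ratio of 0.947, and 88.3 and 58.3 in T-47D cells, with its other probe set at 18.2 to 45.9 over all arrays. Both MDA-MB-231 ratios are near 1, and with spike-in scaling their log2 values turned to 0.04 for SLC36A1 and 0.05 for SLC36A4. With the mean of probe sets that of SLC36A4 turned from -0.08 to 0.50.

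Between the control arrays, the members were called about as often as other genes. At 2-fold with the minimum signal on both arrays, 1 of 7 member probe sets was higher in MDA-MB-231 cells, where 16.1% of all 8194 probe sets were, and 2 of 7 were lower, where 14.7% were. With 7 probe sets of 4 genes these counts are near the background and are not a result about the carriers as a set. The 1 was the brightest of SLC7A1, whose 1814 and 178 give a ratio of 10.2 that 0.293% of all probe sets reached. Averaging all SLC7A1 probe sets, dim ones included, gave a log2 ratio of 0.84 in place of 3.35. The 2 were those of SLC38A2, with ratios of 0.451 and 0.479, while its remaining probe set had 0.517. Scaled to the spike-ins, whose poly-A signal in the MDA-MB-231 control was 0.311 times that in the T-47D control, the SLC38A2 and SLC38A1 signals were instead higher in MDA-MB-231 cells, with log2 ratios of 0.54 and 1.22 on the brightest probe sets, as was SLC36A1 with 1.63, while all genes moved by 1.68.

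On their brightest probe set, SLC7A11, SLC36A4, SLC1A4 and SLC1A5 reached the minimum signal on only one of the control arrays. SLC7A11 had 615 in MDA-MB-231 cells against 36.9, at least 6.15-fold higher when the minimum of 100 is put in place of the latter, and on its second probe set 385 against 17.1, at least 3.85-fold. SLC36A4 had 175 against 88.3, at least 1.75-fold. SLC1A4 was above the minimum in T-47D cells instead, with 179 against 67.2, at least 1.79-fold, and SLC1A5 had 105 in MDA-MB-231 against 57.5 in T-47D cells, at least 1.05-fold. SLC36A1 had 143 and 149, and SLC38A1 had 791 and 1090.0, so these carriers differed less than 2-fold. For SLC36A1 the mean of its probe sets, one of which was below the minimum on every array, gave a log2 ratio of -1.54 in place of -0.05. Over the 4 member genes that could be read on both control arrays, the median log2 ratio, MDA-MB-231 over T-47D, was -0.26, beside 0.02 for all genes read so. With the 4 that reached the minimum in only 1 line added, it was 0.41 over 8 genes, so its sign depended on genes whose ratios are bounds.

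**Figure D4:**
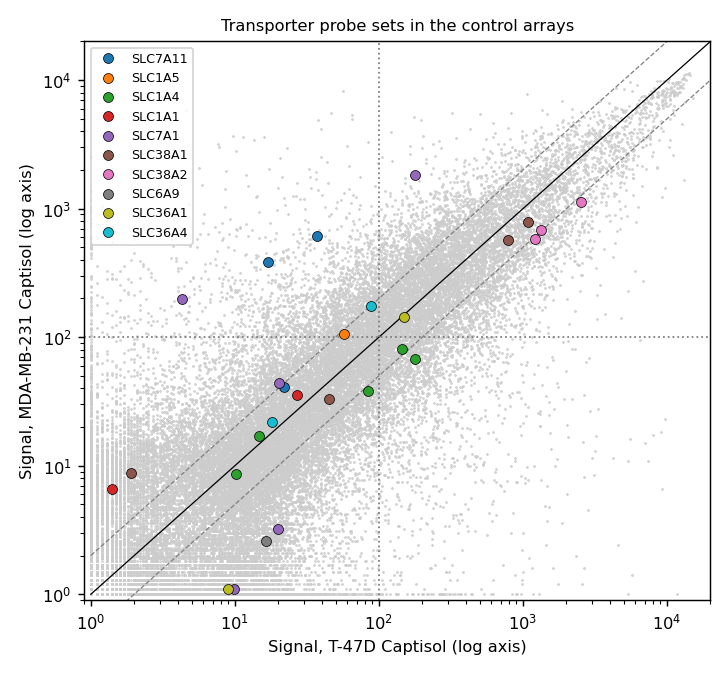
Signal of each probe set in the T-47D control (x axis) and the MDA-MB-231 control (y axis), both on log axes with values below 1 drawn at 1, for all probe sets naming 1 gene (grey) and the 28 member probe sets (coloured by gene), each point being 1 probe set on 1 array per line. The solid line marks equal signals, the dashed lines 2-fold and the dotted lines the minimum of 100; SLC7A1 at 1814 and SLC7A11 at 615 lie far above the upper dashed line.

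Over the 4 arrays, SLC7A1 ran over 3.41 on the log2 scale and SLC38A2 over 1.15, the widest among the 3 genes at the minimum signal on all arrays. The genes whose centred log2 signals lay nearest to those of SLC7A1, by Euclidean distance over 4 arrays and 5264 other genes, were AP1S2 at 0.209, RBPJ at 0.279 and HYI at 0.309. Those nearest to SLC38A2 were SNX27 at 0.0894, PIEZO1 at 0.0986 and SMARCC2 at 0.0994. With 4 arrays such likeness is a description of these arrays alone.

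The other amino acid carriers were taken from a list of 47 genes, of which 44 were measured by a probe set of their own. In MDA-MB-231 cells 9 of them could be read, and none was called. In T-47D cells 10 could be read, and 1 was called lower and 0 higher, where 2.42% of genes were lower and 2.23% higher. The 1 was SLC6A6, the taurine carrier, which read 296 without and 124.5 with JPH203, a ratio of 0.421, against 544 and 677 in MDA-MB-231 cells, a ratio of 1.24. Among the 10, 7 had lower signals with JPH203 and 3 higher, and over 12 genes with the minimum signal on at least 1 array the median log2 ratio was -0.45, beside -0.05 for all genes. It was -0.34 over the 10, and with the mean of probe sets it was -0.08 over 5 genes. In MDA-MB-231 cells the median over 12 genes was 0.08, beside -0.0048. Of the 5 system L genes, 3 could be read in T-47D cells and 2 in MDA-MB-231 cells, and none was called.

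Of 13 genes listed as regulators and partners of the carriers, none was called in MDA-MB-231 cells, where 12 could be read and 0.0885% of all genes were called higher. Because the list was chosen with earlier results of these data known, its counts describe it and are not an independent result. The paper had already named ATF4 and DDIT3 among genes that differed on these T-47D arrays. In T-47D cells 4 of the 10 that could be read were called higher, where 2.23% of all genes were, namely ATF4, DDIT3, TRIB3 and CEBPB, and none lower. ATF4, which drives the amino acid response, had 1676 and 5593 there, a ratio of 3.34, and 1466 and 1357 in MDA-MB-231 cells, a ratio of 0.925. By qPCR, however, the paper reports a rise of ATF4 RNA in MDA-MB-231 cells too, after a shorter exposure to JPH203. It also reports more ATF4 protein and more phosphorylated GCN2 in both lines after that shorter exposure. The array ratio therefore does not show that the response was absent in MDA-MB-231 cells, and the reason for the difference was not tested. CEBPB, which pairs with ATF4 on DNA, had 1194 and 2416 on the T-47D arrays, a ratio of 2.02, and 1138 and 1382 in MDA-MB-231 cells. NFE2L2, which encodes NRF2, was not called, with 748 and 571 in T-47D cells and 1403.5 and 1741 in MDA-MB-231 cells.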

How the data were processed

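The 4 arrays, 1 for each line and treatment as the sample labels give them, were read as deposited. The authors deposited linear signal intensity values for 54675 probe sets. Per the submitters' processing notes these came from GCOS. Its version is not given in the sources used here, nor are detection calls. With 2% of values trimmed at each end, every array averaged between 100.016 and 100.02, the result of scaling each array globally. Genes were named from the platform annotation for 41097 probe sets with 1 gene, of which 41043 matched RefSeq. A call needed a ratio of 2 or more, or 0.5 or less, and the minimum signal of 100 on each array compared. A gene was represented by its brightest probe set over the arrays. With 1 array per condition, no p-value was computed, and the number of arrays limits the precision. The genes named were all 10 members, SLC3A2, ATF4, listed carriers and regulators called in a line, and the 3 genes nearest to each of 2 members. NFE2L2 and COL1A1 were named after their values were seen. The members and lists were chosen with earlier results of these data known. Alternatives were other scalings (median centring, quantile, loess, poly-A spike-ins), a pseudocount of 16, other minimum signals and thresholds, and other choices among probe sets. The code that makes the calls was run on simulated data, and the reliability of the calls on these 4 arrays was not tested. Software comprised Python 3.11.15, pandas 2.3.3, numpy 2.4.6, statsmodels 0.14.6 and matplotlib 3.10.9.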

Additional observations from a re-analysis of the deposited data

Results flagged for a closer look

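SLC38A1 and SLC38A2 had ratios of JPH203 over Captisol on opposite sides of 1 in the lines, above it in MDA-MB-231 and below it in T-47D, with 1 array per condition. The difference was not tested. On the brightest probe sets the log2 ratio of MDA-MB-231 exceeded that of T-47D by 1.05 for SLC38A1 and by 0.94 for SLC38A2. Opposite directions were also seen for 2871 of the 5265 genes at the minimum signal on all arrays, which is 54.5%.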

How the results depend on the processing

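No paired analysis was possible because each condition has 1 array. For the main counts and medians, 80 values under alternatives stayed near the main value, and the others follow. Near meant a count unchanged or within 1.5 times, or a median of the same sign that moved by less than 0.2 on the log2 scale. The cause of the other values was not tested. Shares in brackets are those of all probe sets. With JPH203, 0 member probe sets were called in either line. With no minimum signal, 28 were read: 3 were called higher (12.6%) and 1 lower (11.8%) in MDA-MB-231 cells, and 5 higher (17.2%) and 3 lower (15%) in T-47D cells. With a minimum of 50, SLC1A5 gave 1 higher (2.13%) and SLC36A1 1 lower (3.27%) in T-47D cells. Spike-in scaling (26.8%) and a 1.5-fold threshold (13.8%) each gave 5 of 8 lower there, all of SLC38A1 and SLC38A2. Between the controls, the 1 higher in MDA-MB-231 became 4 of 7 with spike-in scaling (77.8%), 7 of 28 with no minimum (22.7%), and 0 with a minimum of 200, without _x_at and _s_at probe sets or with the mean of probe sets. The 2 higher in T-47D became 8 of 28 with no minimum (27%), 1 with the brightest or the mean of probe sets, and 0 with spike-in scaling, a 3-fold threshold or without _x_at and _s_at probe sets. The members' median log2 ratio with JPH203 in MDA-MB-231, 0.13, turned to -0.0325 without those probe sets and to -0.0086 with the mean. In T-47D it went from -0.19 to -0.84 with spike-in scaling, -0.75 without those probe sets and 0.37 with the mean of probe sets. Between controls it went from 0.41 to 2.09 with spike-in scaling, 1.44 with a minimum of 200, 0.16 with none and 0.93 without those probe sets. Spike-in scaling turned the control log2 ratios of SLC38A1 to 1.22, SLC38A2 to 0.54 and SLC36A1 to 1.63. For the other carriers, in settings chosen after seeing the data, the MDA-MB-231 median of 0.08 became -0.0011 with no minimum, and the T-47D median of -0.45 became -1.11 with spike-in scaling (all genes -0.71), -0.11 with no minimum and -0.08 with the mean of probe sets. Signals below the minimum limit what can be said of SLC1A1, SLC6A9 and SLC1A5.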
